A study of Mus musculus with 8 samples.

Results

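Cytosolic ribosomal proteins are the proteins of the 40S and 60S subunits of the ribosome. Their transcripts were taken as the mouse genes whose symbol starts with Rpl or Rps and a digit, with Rplp or with Rpsa, leaving out the S6 kinases, Rps19bp1 and pseudogenes. This gave 88 of the 21900 protein-coding genes of RefSeq, 54 of the large subunit and 34 of the small subunit by symbol alone. Of the 88, 10 are paralogues named as such (Rpl22l1, Rpl7l1, Rps27l and the like). Rps23rg1 was counted among the 34 and not among the 10. Of the 88 genes, 32 held an m6A peak in at least 1 of 4 peak lists, and 56 in none of them.

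Sites of m6A (N6-methyladenosine), an adenosine that carries a methyl group within RNA, were mapped by MeRIP-seq, in which an anti-m6A antibody pulls down short RNA fragments that are then sequenced. The RNA came from RAW264.7 cells, a mouse macrophage line grown in medium with serum. A group was untreated (control), and the other groups were given TBP, TCP or TIP, abbreviations that the labels do not spell out, each at 100 µM for 24 h. Each condition has 1 immunoprecipitated library, whose peak list was analysed, and 1 RNA input library, which was not analysed here. With 1 library a condition there is no replicate and no test: 95% intervals (exact Clopper-Pearson) cover counting error over genes or peaks only, and genes and peaks of 1 library are not replicates of a condition.

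Ribosomal protein transcripts are short, abundant and made in near-equal amounts, and most begin at a cytosine followed by a run of pyrimidines, the 5′ terminal oligopyrimidine (TOP) motif, through which the kinase mTOR and the protein LARP1 set how strongly they are translated. Many of their genes also carry small nucleolar RNA (snoRNA) genes inside introns, and many have processed pseudogenes, near-identical copies elsewhere in the genome. The m6A mark is generally found near stop codons and in long exons, in a sequence context centred on GGAC.

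The deposited lists held 4432 peaks in control, 6285 with TBP, 6981 with TCP and 3034 with TIP, in 2478, 3129, 3400 and 1789 genes. Each peak has a position, a strand, an annotation class and 1 score of no stated scale, which is used here only as a rank within its own list. Read counts behind a peak are unknown, so a missing peak means that none was called, not that the transcript was unmethylated. Any peak in any list was found for 8 of 10 macrophage markers and for 0 of 20 markers of other cell types. Coordinates are on GRCm38 (mm10).

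The starts of the transcripts are shown first, because they carry the sequence feature that the family is known for. The RefSeq promoter table (GRCm38.p6) matched 68 of the 88 genes, and 23 of the 32 with a peak. The following stretches of 30 bases run from 15 bases before a listed start to 15 bases from it onwards, 5′ to 3′ on the strand of the gene, for those matched genes that had a peak in 3 or 4 lists. Capitals mark the longest run of pyrimidines that opens with C and begins within 10 bases of the listed start.
Rpl14 (chr9:120571502-120571531, plus strand): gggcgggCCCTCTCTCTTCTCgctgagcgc
Rpl13a (chr7:45128731-45128760, minus strand): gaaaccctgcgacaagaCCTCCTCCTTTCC
Rps24 (chr14:24490663-24490692, plus strand): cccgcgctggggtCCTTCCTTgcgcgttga
Rpl4 (chr9:64173372-64173401, plus strand): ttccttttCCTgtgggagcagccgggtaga
Rps3 (chr7:99483695-99483724, minus strand): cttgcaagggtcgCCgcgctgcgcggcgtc
Rpl7l1 (chr17:46782642-46782671, minus strand): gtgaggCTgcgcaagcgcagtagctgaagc

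The run was 14 bases long in Rpl14 and in Rpl13a, where its last base falls outside the stretch, and 8 bases in Rps24 at the start shown. Another listed start of Rps24, at base 24490753, had a run of 2. In Rpl4 the 3 bases marked are the end of a longer unbroken tract of pyrimidines that begins farther upstream than the window searched. The run was 2 bases in both Rps3 and Rpl7l1, the only genes of the family with a peak in all 4 lists. A run of at least 5 bases within 10 bases of a listed start was found in 42 of the 68 matched genes (61.8%), against 34.9% of 17492 matched protein-coding genes. Directly at the listed start it was found in 15 of 68 (22.1%), against 2.67% of all. The share within 10 bases was 8 of 23 (34.8%) among members with a peak and 34 of 45 (75.6%) among members without one. Listed starts can lie some bases away from the start in these cells, and whether that differs between the 2 sets was not tested.

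Ribosomal protein genes held peaks in every list, in most numbers in control and TBP. In control 17 of 88 had a peak, 19.3% (11.7 to 29.1), where 11.2% of all protein-coding genes had one. In TBP it was 18, 20.5% (12.6 to 30.4), against 14.1%. With TCP, whose list was longest, it was 11, 12.5% (6.41 to 21.3), against 15.3%. In TIP it was 7, 7.95% (3.26 to 15.7), against 8.08%. TCP thus had a higher share of all protein-coding genes with a peak than control, and a lower share of ribosomal protein genes, whose intervals in those 2 lists overlapped. When each list was held to its 3034 best-scored peaks, 11, 6, 2 and 7 ribosomal protein genes had a peak in control, TBP, TCP and TIP. Their shares were 12.5%, 6.82%, 2.27% and 7.95%, while those of all protein-coding genes were 8.49%, 8.36%, 8.4% and 8.08%. In TBP this cut fell inside a block of 297 peaks of equal score (rank 2789), which were ordered by genome position. The TBP peaks of Rpl7l1 and Rps24 belong to that block, so their place among the 6 genes is arbitrary. From these peak lists alone, without the RNA input libraries, fewer marked copies, fewer copies in all and fewer cells with the mark cannot be told apart.

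By subunit, large-subunit genes with a peak numbered 8 of 54 in control, 9 with TBP, 6 with TCP and 5 with TIP. Small-subunit genes with a peak numbered 9 of 34 in control and with TBP, 5 with TCP and 2 with TIP. The small-subunit share was 26.5% (12.9 to 44.4) in control and 5.88% (0.72 to 19.7) in TIP, and the large-subunit share was 14.8% (6.62 to 27.1) and 9.26% (3.08 to 20.3). The intervals of the 2 subunits overlapped in every list.

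**Figure D1:**
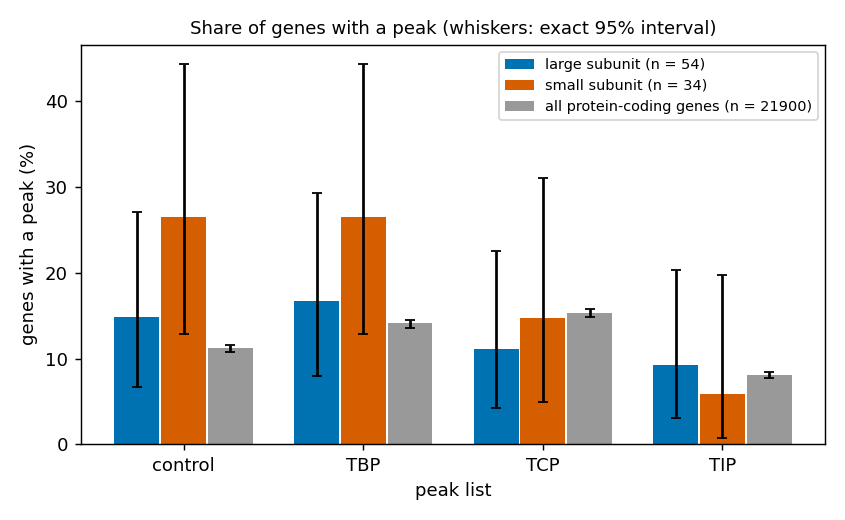
Share of genes with a peak (y axis, percent) in each peak list (x axis), for large-subunit genes, small-subunit genes and all protein-coding genes, with exact 95% intervals as whiskers. The small-subunit share is 26.5% in control and TBP and 5.88% in TIP, and all intervals of the 2 subunits overlap.

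Over all lists, 32 of 88 genes (36.4%, 26.4 to 47.3) had a peak somewhere, against 19.3% of protein-coding genes, and 2 of 88 (2.27%, 0.276 to 7.97) had one in all 4, against 5.8%. Ribosomal protein genes with a peak were thus mostly found in a single list. Of the 32, 20 (62.5%, 43.7 to 78.9) had a peak in 1 list only, where 28.6% of the 4228 protein-coding genes with a peak did. At the other end, 2 of the 32 (6.25%, 0.766 to 20.8) were in all 4 lists, where 30.0% of the 4228 were.

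**Figure D2:**
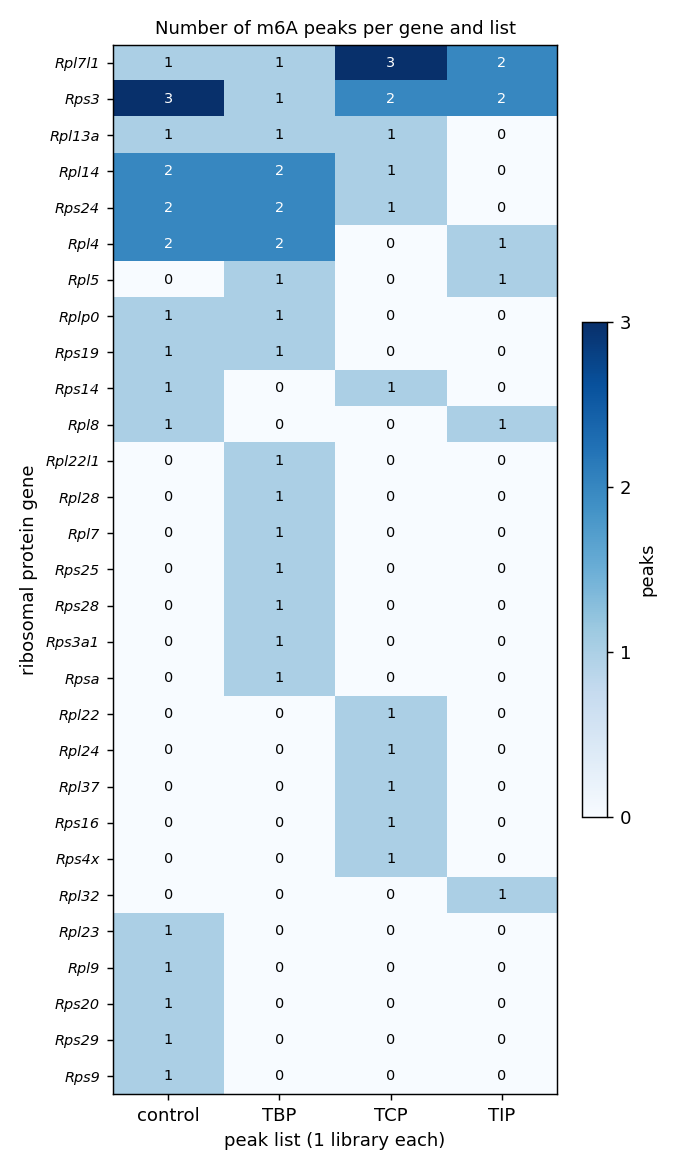
Number of m6A peaks (colour and printed number) in 29 of the 32 ribosomal protein genes with a peak (rows) in the 4 peak lists (columns). Of the genes drawn, Rpl7l1 and Rps3 have peaks in all 4 lists, 4 genes in 3 lists, 5 in 2 lists and 18 in 1 list.

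Rps3, a 40S protein at the entry of the messenger RNA channel, carried 3 peaks in untreated cells, 1 with TBP and 2 with each of TCP and TIP. The gene lies on the minus strand of chromosome 7 (99477896 to 99483709). Its control peaks lay in exon 4 (99481696 to 99481720), in exon 6 (99479296 to 99479320) and in the 3′ UTR (99478671 to 99478720), with ranks of 2610, 2610 and 2323 of 4432. Its TBP peak, in the 3′ UTR at 99478871 to 99478945, ranked 332 of 6285. TCP had a 3′ UTR peak at 99478871 to 99478895, inside the stretch of the TBP peak, with a rank of 5229 of 6981. It also had an exon 4 peak at 99481696 to 99481745 (rank 4645), which covered the control one. In TIP the 3′ UTR peak lay at 99478946 to 99478970 and started on the base after the TBP peak ended, and a second peak lay in exon 3 at 99482290 to 99482314. Both TIP peaks had a rank of 2110 of 3034. All lists thus had a 3′ UTR peak, but the control one was 150 bases from the TBP peak and 225 from the TIP peak.

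Rpl7l1, a paralogue of the large-subunit gene Rpl7, was the other gene with peaks in all 4 lists, all in its 3′ UTR on the minus strand of chromosome 17. The lists shared 1 short region. The peak ran from 46775632 to 46775656 in control (rank 2572), from 46775607 to 46775681 in TBP (rank 2789), and from 46775607 to 46775631 in both TCP (rank 3095) and TIP (rank 2269). The TBP peak overlapped the other 3, and the control peak abutted those of TCP and TIP without a shared base. TCP and TIP shared a further peak starting at 46775432, which ended at 46775506 in TCP (rank 1446, the highest of any ribosomal protein peak in that list) and at 46775456 in TIP (rank 2110). Another TCP peak lay at 46774182 to 46774206 (rank 5229). The nearest-gene column of the lists gives these peaks to 2310039H08Rik, whose RefSeq span does not hold them.

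Rpl4, a 60S protein that lines the tunnel through which the new peptide leaves, had the highest-ranked ribosomal protein peaks in control, TBP and TIP and no peak in TCP. Its gene is on the plus strand of chromosome 9 (64173387 to 64178562). Control and TBP had the same peak of 25 bp in its last exon, exon 10 of 10, at 64178407 to 64178431, which ranked 239 of 4432 and 112 of 6285. TIP had a peak in that exon at 64178332 to 64178381, 25 bases upstream, with a rank of 17 of 3034, shared with 300 other peaks. A second peak lay at the end of the 3′ UTR in control (64178507 to 64178556, rank 2610) and in TBP (64178532 to 64178556, rank 4741).

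Rpl14, Rpl13a and Rps24 had peaks in control, TBP and TCP and none in TIP. Rpl14, of the large subunit, had a peak of 327 bp at chromosome 9, 120573777 to 120574103, with the same ends in control (rank 3291) and TBP (rank 4234). Its second control peak, at 120574429 to 120574453 (rank 3291), was found with the same ends in TCP (rank 3744), and TBP had a peak of its own at 120573627 to 120573676 (rank 5377). All were annotated to the 3′ UTR. Each of the control peaks of Rpl14 was thus called again with the same ends in 1 compound list, and not in the same one.

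Rpl13a, known in human monocytes for leaving the ribosome after interferon-gamma to silence inflammatory transcripts, had 1 peak in its 3′ UTR in each of control, TBP and TCP (chromosome 7, minus strand). The control peak ran from 45126008 to 45126164 (rank 3291). The TBP peak, 45125908 to 45125982 (rank 3788), covered the TCP peak, 45125933 to 45125982 (rank 3744), and both lay 25 bases from the control peak. Rps24, a 40S protein whose gene is mutated in some human patients with Diamond-Blackfan anaemia, had a control peak in exon 3 of 4 at chromosome 14, 24492054 to 24492128 (rank 2323), and one in the 3′ UTR at 24495804 to 24495853 (rank 3772). The latter overlapped a TBP peak at 24495804 to 24495828 (rank 2789). In exon 4 TBP had a peak at 24493429 to 24493453 (rank 5377) and TCP at 24493454 to 24493478 (rank 4184), which abut.

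**Figure D3:**
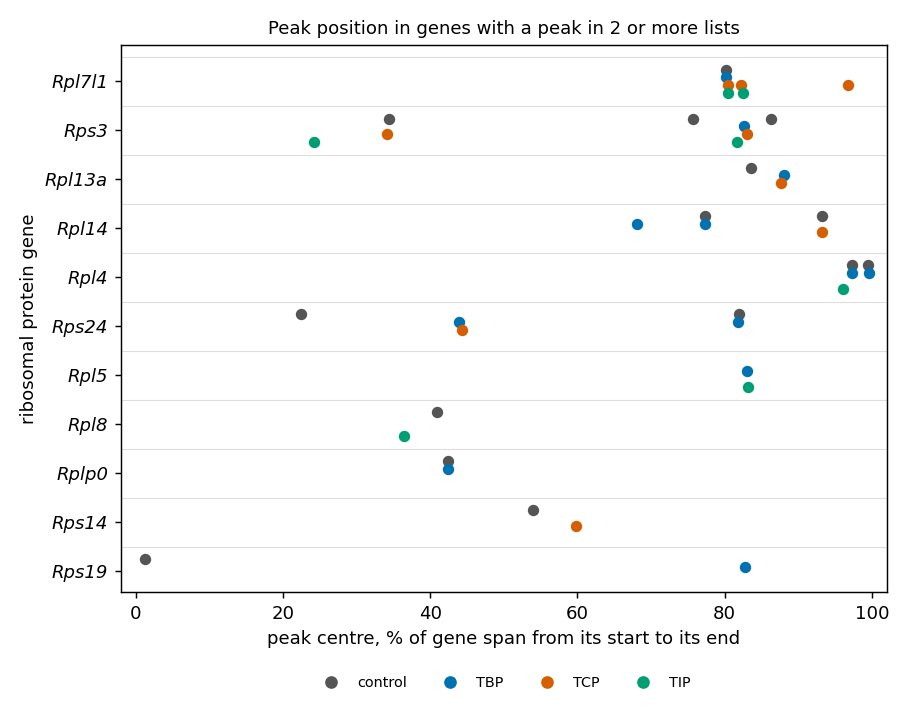
Centre of each peak as a percent of the RefSeq gene span from its start to its end (x axis), for 11 of the ribosomal protein genes with a peak in at least 2 lists (rows), coloured by list. The peaks of Rplp0 have the same place in control and TBP and those of Rpl4 lie near the end of the gene in all 3 lists that have one, while the peaks of Rps19 in control and TBP lie 4201 bases apart.

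After TBP, 9 of the 71 ribosomal protein genes without a control peak had one (12.7%, 5.96 to 22.7), where 5.41% of all protein-coding genes without a control peak did. Among them were Rpl22l1, Rpl28, Rpl5 and Rpl7 of the large subunit and Rps25, Rps28, Rps3a1 and Rpsa of the small subunit. Each of the 9 had 1 TBP peak. In the reverse direction, 8 of the 17 control genes had no TBP peak (47.1%, 23.0 to 72.2), against 17.1% of all control genes. Among them were Rpl23, Rpl8, Rpl9, Rps14, Rps20, Rps29 and Rps9.

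After TCP, 5 of the same 71 genes had a peak (7.04%, 2.33 to 15.7), against 6.63% of all: Rpl22, Rpl24, Rpl37, Rps16 and Rps4x. Of the 17 control genes, 11 had no TCP peak (64.7%, 38.3 to 85.8), against 16.0% of all control genes. These included Rpl4, Rpl8, Rpl9, Rpl23, Rplp0, Rps9, Rps19, Rps20 and Rps29. After TIP, 2 of the 71 had a peak (2.82%, 0.343 to 9.81), against 1.66%: Rpl5 and Rpl32. Of the 17, 12 had no TIP peak (70.6%, 44.0 to 89.7), against 40.9% of all control genes, including Rpl9, Rpl13a, Rpl14, Rpl23, Rplp0, Rps9, Rps14, Rps19, Rps20, Rps24 and Rps29. The 3 comparisons use the same control library, so their counts are given side by side and not combined. When every list was shortened to its top 3034 peaks by score, 2 of 77 genes without a control peak had one with TBP (2.6%), 1 with TCP (1.3%) and 2 with TIP, against 2.37%, 2.54% and 2.32% of all protein-coding genes without a control peak. Of the 11 control genes left at that length, 7 had no TBP peak (63.6%, 30.8 to 89.1), 10 no TCP peak (90.9%, 58.7 to 99.8) and 6 no TIP peak (54.5%, 23.4 to 83.3). The shares of all control genes were 27.2%, 28.4% and 29.8%. Rpl7l1 and Rps24 escaped the count for TBP only by the order of tied peaks at the cut.

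Rpl5 was the only gene of the family without a control peak that had one with more than 1 compound. It encodes a 60S protein that carries the 5S ribosomal RNA and can bind the ubiquitin ligase Mdm2. Its TBP peak spanned 694 bp from 107907217 to 107907910 of chromosome 5 (rank 1695 of 6285), and its TIP peak 669 bp from 107907242 to the same end (rank 1687 of 3034). Both were annotated to exon 7 of 8 and both spanned Gm26387, a snoRNA gene. Counts of Rpl5 rest on these wide peaks.

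Peaks confined to the control list were found in 6 genes, 1 in each. Rps9, a 40S protein of the messenger RNA entry site, had it in exon 3 of 5 (chromosome 7, 3704740 to 3704789, rank 1905), and Rps29, a small zinc-binding 40S protein, in the 5′ UTR (chromosome 12, 69159094 to 69159168, rank 1905). Rpl9, of the large subunit, had a 3′ UTR peak with a rank of 3772 (chromosome 5, 65388489 to 65388513). Rps20, of the head of the 40S subunit, had a peak in exon 2 of 4 (chromosome 4, 3835186 to 3835210, rank 3772). Rpl23, a 60S protein facing the small subunit, had a peak of 2748 bp (chromosome 11, 97778627 to 97781374, rank 3291), the widest of the family. The highest rank among these 6 was 1905 of 4432.

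Rplp0, the base of the stalk that binds elongation factors, had 1 peak of 137 bp with the same ends in control (rank 2323) and TBP (rank 4741), in exon 4 of 7 at chromosome 5, 115561209 to 115561345. Rps19, the gene most often mutated in human Diamond-Blackfan anaemia, had a 5′ UTR peak in control (chromosome 7, 24884646 to 24884670, rank 3291) and a 3′ UTR peak in TBP (24888872 to 24888946, rank 2099). Rps14, whose loss is linked to human 5q- syndrome, had a control peak of 428 bp in exon 2 of 3 (chromosome 18, 60776516 to 60776943, rank 2107) and a TCP peak that began on the next base, 60776944 to 60776968 (rank 3095). Rpl8, a 60S protein close to the peptidyl transferase centre, had peaks in exon 4 of 6 in control (chromosome 15, 76904978 to 76905002, rank 1698) and TIP (76904878 to 76904902, rank 2269 of 3034), which lay 75 bases apart. Of these genes, only Rplp0 had peaks in 2 lists that shared a base.

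Genes with a single peak in TBP alone had ranks of 3788 to 5377 of 6285. They included Rps25, a 40S protein needed for some viral internal ribosome entry sites, Rps28, Rps3a1, Rpsa (also known as the laminin receptor), Rpl7, Rpl28 and Rpl22l1, a paralogue of Rpl22. The Rpl22l1 peak, on the plus strand, lay within the bounds of a minus-strand TBP peak of the same rank, 5377. The genes with a peak in TCP alone were Rpl37 (rank 2604 of 6981), Rpl24 (4184), Rpl22 (4645), the X-linked 40S gene Rps4x (5229) and Rps16 (5932). Rpl24, which reaches across to the small subunit, had a peak of 2414 bp. Rpl32 had a single peak in TIP, with a rank of 2704 of 3034.

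Ribosomal protein peaks stood low in the score order of each list. Of 23 control peaks 6 (26.1%) were at or above the list's median score, as were 6 of 21 in TBP (28.6%), 4 of 14 in TCP (28.6%) and 2 of 9 in TIP (22.2%). Over the 4 lists this was 18 of 67 (26.9%), against 53.3% of all peaks in protein-coding genes. The median rank, as a percent of the list where 0 is the highest score, was 58.9 in control, 67.4 with TBP, 59.9 with TCP and 69.5 with TIP, against 47.5 to 49.7 for peaks in all protein-coding genes. With ties taking the best rank, only Rpl4, and Rps3 in TBP, ranked within the first 10% of a list. The TIP peak of Rpl4 shared its rank of 17 of 3034 with 300 other peaks, a block that reaches past the first 10%.

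**Figure D4:**
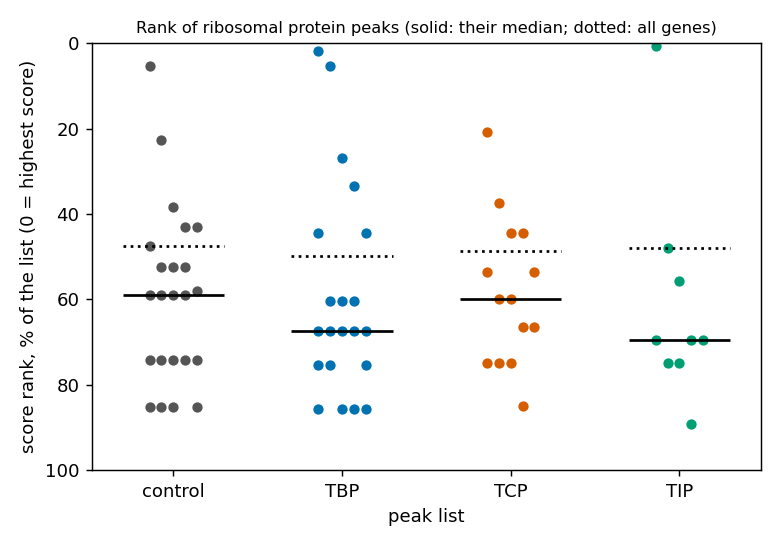
Score rank of every peak in a ribosomal protein gene, as a percent of its list (y axis, 0 at the top is the highest score), by list (x axis). Peaks of equal score take the best rank. Solid lines are the medians of these peaks, between 58.9 and 69.5, and dotted lines those of peaks in all protein-coding genes, between 47.5 and 49.7.

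Most peaks of the compound lists in ribosomal protein genes shared no base with a control peak. Of the 21 TBP peaks in ribosomal protein genes, 6 (28.6%, 11.3 to 52.2) overlapped a control peak by at least 1 bp on the same strand, against 40.1% of TBP peaks in all protein-coding genes. For TCP it was 2 of 14 (14.3%, 1.78 to 42.8) against 35.5%, and for TIP 0 of 9 (upper limit 33.6%) against 51.8%. The shares in all protein-coding genes were higher at or above the list's median score than below it. Among members the peaks were too few to tell, and the intervals on the 2 sides of the median overlapped for each compound. For TBP they were 11.8 to 88.2% at or above the median and 4.33 to 48.1% below it. Among TBP peaks below the list's median score, 3 of 15 in ribosomal protein genes (20.0%) and 15.3% of those in all protein-coding genes overlapped a control peak, and at or above it 3 of 6 and 60.7%. For TCP, the shares were 2 of 10 (20.0%) and 13.8% below the median and 0 of 4 and 54.2% at or above it. For TIP, they were 0 of 7 and 39.4% below it and 0 of 2 and 63.2% at or above it. Over all scores, the intervals of TBP and TCP held the share of all protein-coding genes, and that of TIP did not. The part of the score in these overlaps was not tested. Between pairs of lists, a gene of the family had a peak in both on 32 occasions, and on 14 of these (43.8%) at least 1 base was shared, against 77.4% of 11070 such occasions in all protein-coding genes, which more often had several peaks. The ends of a peak were the same in 5 of the 14.

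**Figure D5:**
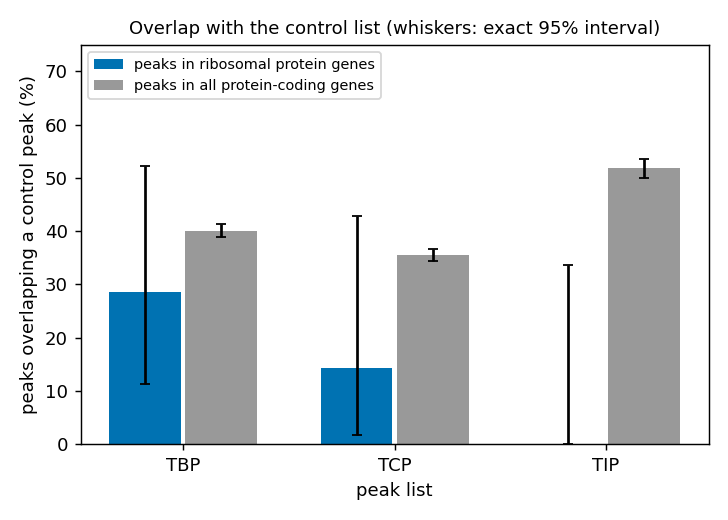
Share of the peaks of each compound's list that overlap a control peak (y axis, percent), for peaks in ribosomal protein genes and in all protein-coding genes, with exact 95% intervals as whiskers. The ribosomal protein share is 28.6% in TBP, 14.3% in TCP and 0 of 9 in TIP.

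By annotation class, 29 of the 67 peaks (43.3%, 31.2 to 56.0) lay in 3′ UTRs, 36 (53.7%, 41.1 to 66.0) in exons outside UTRs and 2 (2.99%, 0.364 to 10.4) in 5′ UTRs, where peaks in all protein-coding genes gave 49.8%, 46.3% and 3.86%. Of the 36 exon peaks, 6 (16.7%) were in the last exon of the named transcript, against 34.8% of 9338 in all protein-coding genes, and these were the peaks of Rpl4 in control, TBP and TIP, of Rps24 in TBP and TCP and of Rps14 in TCP. The others lay upstream of it, as in Rpl8 and Rplp0. Along the gene span, 37 of 67 peaks (55.2%) were centred in the last 25% of its length, against 61.5%.

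The median peak spanned 50 bp in control and TBP and 25 bp in TCP and TIP. Widths went in steps of 25 bp for most peaks, but 13 of the 67 (19.4%) had another width, against 2.27% of peaks in all protein-coding genes. These included all 4 peaks over 500 bp (Rpl23, Rpl24 and Rpl5 in TBP and TIP) and narrower ones in Rpl13a, Rpl14, Rpl28, Rpl37, Rplp0, Rps14 and Rps3a1. These widths are spans on the genome that may hold introns, which were not mapped, so they are not lengths of marked RNA. The Rpl5 peaks spanned a snoRNA gene. The Rps14 control peak, annotated to exon 2, ended on the base before a TCP peak annotated to exon 3. The gene spans are short, with a median of 3.18 kb against 17.1 kb for all protein-coding genes, and the median was 3.59 kb in the members with a peak and 3.07 kb in those without. Counting each gene once in each list that held it, 12 of 53 (22.6%) had more than 1 peak, against 41.4% in all protein-coding genes.

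A pair of 25 bp peaks near a start could be read from the promoter table, and they are the only peaks at a ribosomal protein start for which sequence was at hand. They are the 5′ UTR peak of Rps19 in control, which begins 30 bases before a listed start, and a TBP peak annotated to a 5′ UTR beside Rps25 (rank 4741). The latter begins 50 bases before the listed start, so it lies outside the RefSeq span of Rps25 and is not among the 67. Capitals would mark GGAC, the core of the m6A context, and neither stretch holds it on either strand. In all 32851 promoter windows, the same 25 bases hold it on either strand in 15.3% and 15.4%.
Rps19 (chr7:24884646-24884670, plus strand): ctggcagcgcggaggccgcacggtg
Rps25 (chr9:44407664-44407688, plus strand): aggtttctgggattgttgggccacc

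Several peaks that the lists name after ribosomal protein genes lie in other genes. The nearest-gene column names a family member for 64 peaks, of which 36 lie in a member and 28 do not, and 31 of the 67 member peaks carry another gene's name there. The 7 minus-strand peaks named Rpl5, found in all 4 lists, lie in Dipk1a, the 5 named Rps27l in Lactb and the 3 named Rps15 in Dazap1. In turn, the peaks of Rpl4 are named Snapc5, and those of Rps3, Rpl13a and Rpl32 are named after snoRNA genes (Snord15a, Snord15b, Snord35a and Snora7a). Of the 88 genes 30 (34.1%) hold a snoRNA gene, 13 of the 32 with a peak and 17 of the 56 without. Of the same sets, 20 of 32 and 43 of 56 share their symbol with at least 1 pseudogene of RefSeq, and of 324 such pseudogenes few held a peak themselves (0 in control and TIP, 2 with TBP and 1 with TCP). How the authors' alignment treated reads that fit a gene and its pseudogenes is not given in the sources used here, so presence in these genes is uncertain to that degree.

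In each list, the 5 gene lists of ribosome production and use below held peaks at higher shares than the cytosolic ribosomal proteins, a difference with no test. Peaks were held by 11.2% of all protein-coding genes in control, 14.1% with TBP, 15.3% with TCP and 8.08% with TIP. Of all those without a control peak, 5.41%, 6.63% and 1.66% had one with TBP, TCP and TIP. Of all those with a control peak, 17.1%, 16.0% and 40.9% had none with TBP, TCP and TIP. Of 78 mitochondrial ribosomal protein genes, 26 carried a peak in untreated cells (33.3%), 27 with TBP, 28 with TCP and 17 with TIP (21.8%). Of the 52 without a control peak, 7, 10 and 7 had one with TBP, TCP and TIP, and of the 26 with one, 6, 8 and 16 had none. Among the genes changed with every compound, Mrpl17, Mrpl41 and Mrpl52 carried peaks with each compound and 0 in untreated cells, and Mrps14 did the reverse. These were picked by alphabetical order, and others of the list changed with every compound in each direction. Of 36 ribosome biogenesis genes, 15 carried a peak in untreated cells (41.7%), 21 with TBP, 22 with TCP (61.1%) and 16 with TIP. Of the 21 without a control peak, 6, 8 and 5 had one with TBP, TCP and TIP, and of the 15 with one, 0, 1 and 4 had none. Mdn1, an ATPase that strips assembly factors from the 60S subunit, had 0 control peaks and 2, 4 and 3 with TBP, TCP and TIP. In the same order, Bms1, a GTPase of 40S assembly, had 0, 0, 3 and 1, and the pseudouridine synthase Dkc1 and its partner Gar1 0, 1, 1 and 0 and 0, 1, 0 and 1.

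Of 21 genes of elongation and other TOP transcripts, 10 carried a peak in untreated cells (47.6%), 6 with TBP, 7 with TCP and 9 with TIP. Of the 11 without a control peak, 2, 2 and 3 had one with TBP, TCP and TIP, and of the 10 with one, 6, 5 and 4 had none. Eef1d, a subunit of elongation factor 1, and Pabpc1, the poly(A)-binding protein, each had 2 peaks in control and 0 elsewhere, the intermediate filament gene Vim had 1 and 0, and Nap1l1, a histone chaperone, carried 1 with each compound and 0 without. Of 16 genes that control the translation of ribosomal protein transcripts, 8 carried a peak in untreated cells, 11 with TBP, 10 with TCP and 3 with TIP (18.8%). Of the 8 without a control peak, 3, 3 and 0 had one with TBP, TCP and TIP, and of the 8 with one, 0, 1 and 5 had none. In control, TBP, TCP and TIP, Eif4ebp2, an inhibitor of the cap-binding protein, had 0, 2, 2 and 0 peaks. Eif4e, that protein, had 0, 1, 1 and 0, Tsc1, a brake on mTOR, 1, 2, 0 and 0, and the kinase Akt1 1, 1, 2 and 0. Of 13 genes of ribosome rescue, 10 had no control peak, and 1, 4 and 0 of these had one with TBP, TCP and TIP. Of the 3 with one, 1, 0 and 1 had none. The counts with a peak in control, TBP, TCP and TIP were 3, 3, 7 and 2. Ascc3, a helicase that splits collided ribosomes, had 0, 2, 1 and 0 peaks, Abce1, which splits ribosomes after termination, and the kinase Eif2ak4 each 0, 0, 1 and 0, and Gtpbp2 1, 1, 1 and 0.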

How the data were processed

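The authors deposited 1 peak list per immunoprecipitated library, with 1-based positions, strand, annotation class, nearest gene and a score. Per the submitters' processing notes, the tools included Trim Galore 0.6.5, HISAT2 2.1.0, Picard 2.23.5, SAMtools 1.9, HOMER 4.11 and ChIPseeker 1.26, and the builds were GRCm38 and mm10, with no role or order. Which program called the peaks, at what threshold and against which background is, beyond that, not given in the sources used here. The deposited score has no stated scale and was used as a rank within its list, ties taking the best one. Widths are in bases of genome.

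Each peak was given to the gene holding it on its strand: the lists' exon annotation, else the nearest gene if the peak lies in it, else a single RefSeq gene (GRCm38.p6) over the peak, passing over small RNA genes. This placed 98.4% of 20732 peaks in 4317 genes. Strands came from the lists and the promoter table (76 of 88 members; Rpl32 rests on the exon annotation alone). The steps were tested on simulated data. Python 3.11.15 with scipy 1.17.1 was used. Members with a peak are named, except a few that are counted but not reported here by name, with positions for those in 3 or 4 lists or changed with at least 2 compounds, and from each other list up to 4 genes changed with the most compounds. Members and lists were chosen with earlier results of these data known. Alternatives were a score minimum, equal list length, the nearest-gene column, either strand, other overlaps, no wide peaks and no paralogues.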

Additional observations from a re-analysis of the deposited data

How the results depend on the processing

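Of the recomputed values, 75 stayed within 1.5 times the reported count, or within the interval of a reported share, and 33 did not. The cause was not tested except where fewer peaks enter by construction. With peaks at or above the list's median score, members with a peak were 6 in control, 6 with TBP, 3 with TCP and 2 with TIP, holding 6, 6, 4 and 2 peaks. Members gained (among the peaks kept, a peak with the compound and none in control) were then 5 with TBP, 2 with TCP and 0 with TIP. Members lost (the reverse) were 5, 5 and 4, and 0 members had a peak in all 4 lists. Of the 5 gained with TBP, Rpl7l1, Rps19, Rps24 and Rps3 had control peaks below the median score. The share of all protein-coding genes gained or lost at this score was not computed. Overlaps with a control peak were 1 for TBP and 0 for TCP. At equal list length, members were 11 in control, 6 with TBP and 2 with TCP, with 14, 6 and 2 peaks. Members gained were then 2 with TBP and 1 with TCP, and members lost with TIP 6 (of 11 control members rather than 17). At that length 1 member, Rpl7l1, was in all 4 lists. The TBP peaks of Rpl7l1 and Rps24 were tied at the cut, so that result and the TBP counts of members and peaks rest on the order of ties. With the nearest-gene column, TIP had 4 members and 5 peaks, and 8 members were gained with TCP and 1 with TIP. Its 2 members in all 4 lists were Rpl5 and Rps27l, so the count stayed and the genes were others. Without peaks over 500 bp, 1 member was gained with TIP, and without paralogues 1, Rps3, was in all 4 lists. Counting either strand, and asking for 25 bp of overlap or for at least 0.5 of the shorter peak, moved no count by over 1.5 times. The lists carry no read counts, so depth sets an unknown limit on what was called. No paired analysis was possible because each condition has 1 immunoprecipitated library.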
